A study of Homo sapiens with 16 samples.

Results

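The 10 genes described here encode dual specificity MAP kinase phosphatases: DUSP1, DUSP2, DUSP4, DUSP5, DUSP6, DUSP7, DUSP8, DUSP10, DUSP14 and DUSP16. They were followed through the 40 intervals, of 74404 in the deposited table, that overlap one of these genes or lie within 10 kb of one of its GENCODE release 44 transcript starts. No measured value enters that rule for intervals, but the genes were chosen with earlier results of these data known. CUT&Tag, which uses an antibody to direct a transposase to chromatin, was run on HEK293, a human embryonic kidney line, here with an eGFP-YAP genotype. Antibodies were against CTCF (which marks domain boundaries), RAD21 (a cohesin subunit), GFP (which reads the eGFP-tagged coactivator YAP and is called YAP1 here) and H3K27ac (a histone mark of active promoters and enhancers). For each of the 4 targets, 2 libraries came from vehicle cells and 2 from cells given 200 mM sorbitol, a hyperosmotic stress, for 1 h, which makes 16 libraries in 8 groups, all with the eGFP-YAP genotype. By the headers of the table, vehicle libraries carry an earlier time point, while the protocol in the labels describes controls taken in parallel with the treated cells, so the sources differ on whether the groups also differ in time. The labels do not say whether the 2 libraries of a group came from separate cultures, so each p-value measures the spread between these libraries only, which may be technical.

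MAP kinases are switched on by phosphorylation of a threonine and a tyrosine in their activation loop, and a dual specificity phosphatase removes both phosphates. Many of these phosphatase genes are transcribed after the kinases have been activated, which closes a negative feedback loop on ERK, JNK and p38. Osmotic shock is a classic activator of the stress kinases p38 and JNK. By location and substrate the family falls into nuclear inducible enzymes (DUSP1, DUSP2, DUSP4, DUSP5), cytoplasmic enzymes that prefer ERK (DUSP6, DUSP7) and enzymes that prefer JNK and p38 (DUSP8, DUSP10, DUSP16). DUSP14 is a small phosphatase that lacks the kinase-binding domain of the others.

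Promoter sequence is shown for 4 genes whose start sites are described below: DUSP1 and DUSP8, which hold the full cAMP response element, and DUSP6 and DUSP10, which do not. Each is the 250 bases before the RefSeq start (hg38), 5′ to 3′ on the gene's strand, and lies inside that gene's start-site interval. Capitals mark the cAMP response element TGACGTCA or its first part TGACG on either strand, and the TATA box TATAAA.

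DUSP1 (chr5:172771196-172771445, minus strand): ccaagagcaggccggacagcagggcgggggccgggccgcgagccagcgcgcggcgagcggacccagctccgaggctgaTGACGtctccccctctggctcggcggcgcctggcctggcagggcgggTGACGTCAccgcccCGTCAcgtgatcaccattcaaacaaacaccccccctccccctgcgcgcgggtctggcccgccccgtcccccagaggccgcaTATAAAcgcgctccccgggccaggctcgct
DUSP8 (chr11:1572272-1572521, minus strand): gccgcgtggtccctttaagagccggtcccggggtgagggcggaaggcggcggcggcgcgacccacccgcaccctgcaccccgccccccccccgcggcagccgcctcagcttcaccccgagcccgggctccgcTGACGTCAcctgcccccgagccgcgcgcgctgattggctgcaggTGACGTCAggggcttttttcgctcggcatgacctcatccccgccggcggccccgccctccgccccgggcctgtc
DUSP6 (chr12:89352502-89352751, minus strand): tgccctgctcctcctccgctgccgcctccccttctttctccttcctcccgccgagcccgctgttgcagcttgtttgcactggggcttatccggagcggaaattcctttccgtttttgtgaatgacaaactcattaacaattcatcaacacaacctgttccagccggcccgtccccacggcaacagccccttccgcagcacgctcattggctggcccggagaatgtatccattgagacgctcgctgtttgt
DUSP10 (chr1:221742090-221742339, minus strand): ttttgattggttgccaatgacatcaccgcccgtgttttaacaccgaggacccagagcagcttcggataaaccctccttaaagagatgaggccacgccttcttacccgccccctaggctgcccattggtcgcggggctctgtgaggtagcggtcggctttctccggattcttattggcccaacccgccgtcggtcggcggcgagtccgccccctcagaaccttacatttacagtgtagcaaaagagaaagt

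RefSeq promoter entries matched 8 of the 10 genes, the others being DUSP4 and DUSP5. Over 250 bases and both strands, TGACGTCA was found in DUSP1 (125 bases before the start) and DUSP8 (118 and 74 bases before it), and in 1.65% of all 35116 promoters. The shorter TGACG, which is contained in the full element, was found in these same 2 of the 8 genes and in 21.2% of all promoters. TATAAA was found in DUSP1 only, 30 bases before its start, and in 10.7% of all promoters. The GC box GGGCGG was present in every one of the 8 except DUSP6, against 42.6% of all promoters. GC content was 56.4% at DUSP10, 57.2% at DUSP6 and from 74.0% (DUSP2) to 82.8% (DUSP14) at the others. Its median over all promoters was 58.0%, and the shares given here are not matched for it. The NF-kappaB element occurred in DUSP6, DUSP7 and DUSP16, as in 22.6% of all promoters. None of the 8 windows held TGANTCA (an AP-1 element, 6.57% of all promoters), GGAATG (a TEAD element, 11.9%), the CArG box (1.16%) or the tonicity element (4.16%). A match describes the letters in these windows and shows no binding.

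Library totals ran from 1.19 to 8.84 M counts (M, 1e6), and mitochondrial intervals took 15.7 to 19.9% of the counts of CTCF vehicle libraries against 32.8 to 33.9% with sorbitol. The corresponding shares were 34.3 to 38.5% and 44.8 to 46.0% for RAD21, 36.5 to 38.1% and 55.4 to 57.8% for YAP1, and 1.95 to 2.08% over all H3K27ac libraries. Values below are CPM, counts per 1000000 on TMM-scaled library sizes, and scaling to the total count instead moves the median log2 change of all tested intervals to -1.04 (CTCF), -0.60 (RAD21), -1.46 (YAP1) or 0.17 (H3K27ac). The second RAD21 vehicle library was the shallowest, with 248 counts over all 40 intervals. Of the genes checked as expressed in HEK293, H3K27ac at start sites with vehicle was 32.0 ± 1.43 CPM per kb at LIN28B, 22.7 ± 0.999 at PAX2 and 10.1 ± 2.83 at NEFM (SD, n = 2 here and throughout). Of 6 genes of other cell types, 4 had any interval and 1, COL1A1, had one at its start site, with 11.3 ± 0.918 CPM per kb.

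The sorbitol response of these genes went in different directions for different targets. On TMM scaling CTCF signal rose at intervals of 6 of the 10 genes, and the largest gain at a start site was at DUSP1. H3K27ac fell more often than it rose. All tested intervals within 1 kb of any transcript start leaned the same way. Of these, 29.1% were higher and 10.3% lower for CTCF, and 9.94% higher and 26.9% lower for H3K27ac. Under total count scaling neither the CTCF calls leaned higher nor the H3K27ac calls lower. RAD21 and YAP1 passed the test at few intervals, and for both the interval that rose was the DUSP1 start site. A start-site interval is the one that overlaps, or lies nearest within 1 kb of, the start of the gene's canonical transcript; all 10 genes had one. A change was called at a Benjamini-Hochberg adjusted p under 0.05 over all tested intervals in the quasi-likelihood test of edgeR.

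For CTCF, 23 of the 40 intervals had enough counts to be tested, and 10 were higher and 1 lower, which is 47.8% against 40.2% of all tested intervals. By direction, 19.5% of all tested intervals were higher and 20.7% lower. The median log2 fold change was 0.90 over the tested intervals of these genes and -0.06 over all tested intervals. At start sites 5 of 8 tested intervals were higher, and all 8 changes lay above 0, from 0.27 to 2.34; scaled to the total count only 4 of the 8 did, and with GC-corrected offsets 5. The 5 start-site calls became 2 under total count scaling and 1, DUSP1, with GC-corrected offsets. The 10 higher and 1 lower calls became 2 and 5 under total count scaling, and 5 and 1 without the second CTCF sorbitol library.

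For RAD21, 10 intervals were tested and 1 was higher, 10.0% against 4.79% of all tested intervals, of which 3.34% were higher and 1.45% lower. The median log2 fold change was 0.35 over the tested intervals of these genes and -0.01 over all. With 2 libraries a group, a change that missed the threshold in any target is not shown to be absent. Without the first or the second RAD21 vehicle library, or without the first sorbitol library, 2 were called. For YAP1, 19 were tested, with 1 higher and 1 lower, 10.5% against 6.83% of all, of which 5.34% were higher and 1.49% lower, and the medians were -0.27 and -0.04. Scaled to the total count, 14 were called, all lower; without the first YAP1 vehicle library none was called, and without the second YAP1 vehicle or the first YAP1 sorbitol library 1 was.

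For H3K27ac, 39 intervals were tested, with 2 higher and 9 lower, 28.2% against 23.1% of all, of which 8.59% were higher and 14.5% lower. The median log2 fold change was -0.13, against 0.02 over all tested intervals. The split was 4 higher and 4 lower under total count scaling and 1 higher and 16 lower when scaled to the weakest 25% of intervals. Leaving out the first or second vehicle library or the first sorbitol library left 5, 7 and 4 calls.

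**Figure D1:**
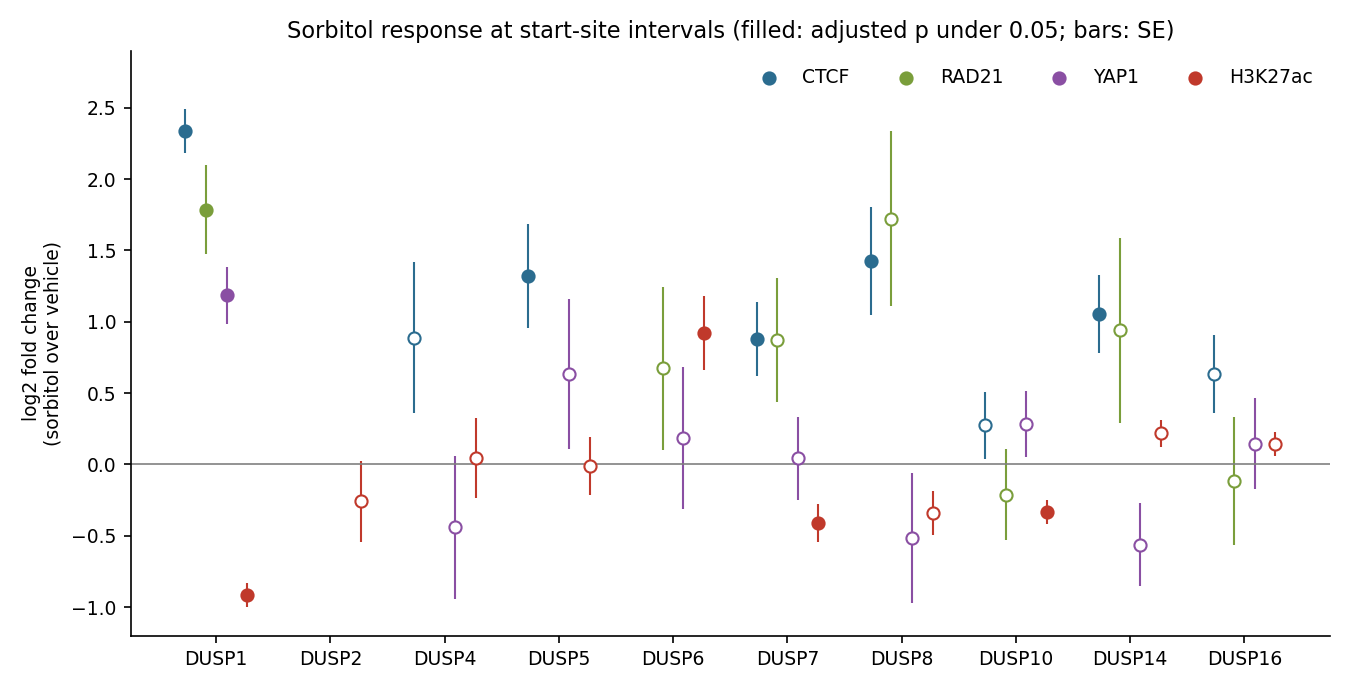
Log2 fold change (sorbitol over vehicle, TMM scaling) at the start-site interval of each gene for each target, with bars of 1 SE; filled points passed adjusted p under 0.05. The DUSP1 points for CTCF (2.34), RAD21 (1.79) and YAP1 (1.19) lie above the points of the other genes for the same target and its H3K27ac point (-0.91) below them. For RAD21 the DUSP8 point (1.72 ± 0.62) lies close to that of DUSP1, and their bars overlap. Scaled to the total count the DUSP1 value for YAP1 is -0.25.

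DUSP1, the nuclear phosphatase that acts on p38, JNK and ERK, was the one gene called in all 4 targets. Its start-site interval (chr5:172770075-172771637, hg38, 1563 bp) covers the start, the promoter printed above and coding exon sequence, and it also overlaps a long noncoding RNA gene. CTCF signal there was 39.7 and 27.4 CPM in the vehicle libraries and 181 and 164 CPM in the sorbitol libraries. Both sorbitol libraries lay far above both vehicle libraries. The log2 fold change was 2.34 ± 0.16 (SE, adjusted p = 5.5e-11), from 33.6 ± 8.69 to 172 ± 11.4 CPM. In 14 alternative analyses it ran from 1.35 to 2.63 and passed in each.

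RAD21 at the same DUSP1 interval was 20.8 and 19.5 CPM with vehicle and 61.1 and 79.5 CPM with sorbitol. The groups did not overlap, and the log2 fold change was 1.79 ± 0.31 (adjusted p = 0.0059). Scaled to the total count it was 1.19, with an adjusted p of 0.055. For YAP1 the vehicle libraries had 28.1 and 31.8 CPM and the sorbitol libraries 63.1 and 73.6 CPM. Both sorbitol values were again above both vehicle values, and the log2 fold change was 1.19 ± 0.20 (adjusted p = 5.3e-04), which turned to -0.25 under total count scaling (adjusted p = 0.34) and had an adjusted p of 0.094 without the first YAP1 vehicle library. When mitochondrial intervals and those of the YAP1 gene were left out of the total, the YAP1 change was 0.48 (adjusted p = 0.091).

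H3K27ac at the DUSP1 start moved the other way. It was 107 and 110 CPM in the vehicle libraries and 63.0 and 51.9 CPM in the sorbitol libraries. Both sorbitol libraries were lower than both vehicle libraries, and the fall was -0.91 ± 0.09 (adjusted p = 1.6e-10), between -1.18 and -0.68 in 14 alternatives, all of which passed. The next DUSP1 interval upstream (chr5:172771880-172772529), 685 bp from the start, also fell in H3K27ac, from 20.8 ± 0.480 to 13.9 ± 1.13 CPM (log2 fold change -0.59 ± 0.17, adjusted p = 0.012). That interval lies outside the DUSP1 gene and overlaps other annotated genes. That fall missed the threshold without the first vehicle library (adjusted p = 0.056) or the first sorbitol library (0.11) and under total count scaling (0.059). CTCF at this upstream interval had 35.2 and 33.1 CPM with vehicle and 48.6 and 43.7 with sorbitol, a change that did not pass (0.43 ± 0.18, adjusted p = 0.057).

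The responses at the DUSP1 start differed between targets by the interaction test of edgeR. That test scales the 8 libraries of 2 targets together, so its differences are not those of the changes printed above. Their medians over all tested intervals were 0.27 for H3K27ac minus CTCF, 0.21 for H3K27ac minus YAP1 and -0.24 for RAD21 minus CTCF. The H3K27ac response minus the CTCF response was -2.88 ± 0.18 on the log2 scale (adjusted p = 1.3e-22), and the H3K27ac response minus the YAP1 response was -1.75 ± 0.20 (adjusted p = 5.1e-12). Scaled to the total count the second difference was -0.52 (adjusted p = 0.053). The RAD21 response minus the CTCF response was -0.46 ± 0.34 and did not pass (adjusted p = 0.64). Of 6 possible pairs of targets these 3 were tested, and pairs with a target in common share its libraries.

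A share inside each library needs no scaling between libraries. Of the counts in the 10 start-site intervals, DUSP1 took 31.3 and 25.1% in the CTCF vehicle libraries and 58.7% and 335 of 670 counts in the CTCF sorbitol libraries. In RAD21 libraries its share was 14.1 and 17.6% with vehicle and 30.5 and 36.5% with sorbitol. In YAP1 libraries it was 21.0 and 21.7%, then 37.6 and 38.7%. The DUSP1 share of H3K27ac counts fell from 25.8 and 27.2% to 18.2 and 14.8%. Vehicle and sorbitol libraries did not overlap in any of the 4 targets; the two-sided exact permutation p was 0.33 for each, the smallest that 2 against 2 libraries allow, so none of these 4 comparisons can pass. This share was chosen after the data were seen, and it also moves when the other 9 genes change.

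**Figure D2:**
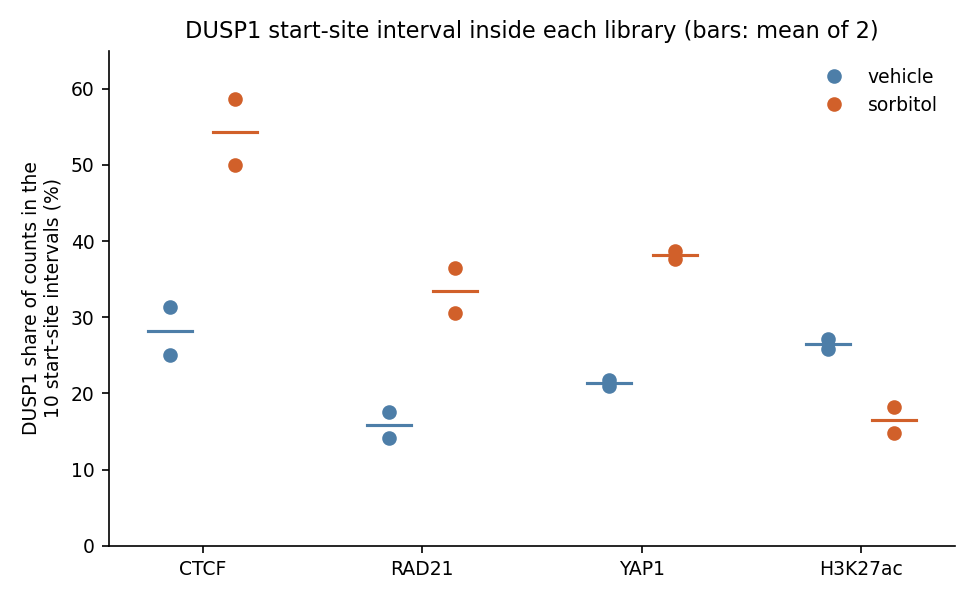
Share of the counts in the 10 start-site intervals that fell in the DUSP1 interval (y axis, %), one point per library, for vehicle and sorbitol in each target. The sorbitol points lie above the vehicle points for CTCF, RAD21 and YAP1 and below them for H3K27ac.

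DUSP2, a nuclear phosphatase first described in lymphocytes, had a short start-site interval with few counts. Its start-site interval (chr2:96145437-96145754), which another annotated gene also overlaps, held 40 and 49 H3K27ac counts in vehicle cells and 63 and 42 after sorbitol. In CPM these were 6.45, 8.01, 6.80 and 5.22. The groups overlapped and the change did not pass (-0.26 ± 0.28, adjusted p = 0.54); the other targets had too few counts there to be tested. An interval over its coding exon (chr2:96144753-96145208) fell in H3K27ac from 12.0 ± 0.109 to 7.20 ± 1.94 CPM (-0.75 ± 0.24, adjusted p = 0.022). That call was lost without either vehicle library or the first sorbitol library (adjusted p up to 0.28) and with GC-corrected offsets (0.20).

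The one CTCF loss among these genes lay downstream of DUSP2, outside the gene, at chr2:96138587-96139032. The transcript start nearest to this interval is one of ASTL. CTCF counts there were 101 and 61 in vehicle cells and 2 and 4 after sorbitol, or 15.7, 14.4, 1.03 and 1.96 CPM. Each sorbitol library was below both vehicle libraries, and the log2 fold change was -3.29 ± 0.50 (adjusted p = 2.4e-05), and it passed in all 13 alternatives that tested it, between -4.26 and -2.92. RAD21 had 14 and 11 counts in vehicle cells and 4 and 2 after sorbitol, too few for the test. H3K27ac there was -1.29 ± 0.61 (adjusted p = 0.13).

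The CTCF consensus, allowing 1 mismatch, was found in the central 400 bp of 7 of the 40 intervals (17.5%) and of 18.2% of all intervals. Below are 100 bases around its match in this DUSP2 interval and in an interval upstream of DUSP16 whose CTCF signal did not pass the test; capitals mark the matched 14 bases, on the strand of the match.

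DUSP2 (chr2:96138817-96138916, plus strand): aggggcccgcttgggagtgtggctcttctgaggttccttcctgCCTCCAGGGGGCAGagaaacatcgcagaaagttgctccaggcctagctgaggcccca
DUSP16 (chr12:12564160-12564259, minus strand): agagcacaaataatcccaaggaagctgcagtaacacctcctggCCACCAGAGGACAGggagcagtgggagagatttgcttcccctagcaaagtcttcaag

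The DUSP16 interval (chr12:12564001-12564431) had 41 and 43 CTCF counts in vehicle cells and 18 and 17 after sorbitol, or 6.36, 10.2, 9.31 and 8.34 CPM. The groups overlapped and the log2 fold change was 0.12 ± 0.40 (adjusted p = 0.82). Of the 7 intervals with a match 5 were tested for CTCF, and 2 were higher, 1 lower and 2 not called. Those higher were the DUSP4 exon interval, the only exact match, and the DUSP5 start, both described below, and the other uncalled one lay upstream of DUSP8 (0.08 ± 0.24). The pair printed was chosen after these values were seen.

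DUSP4, a nuclear phosphatase of ERK and JNK, gained CTCF inside the gene. An interval over a coding exon (chr8:29339951-29340724) had 22.8 and 23.7 CPM with vehicle and 34.7 and 49.6 CPM with sorbitol. The groups did not overlap, and the log2 fold change was 0.86 ± 0.21 (adjusted p = 0.0024). It was -0.12 under total count scaling and 0.58 without the second CTCF sorbitol library (adjusted p = 0.067). The DUSP4 start itself (chr8:29350479-29351016) did not pass in any tested target, with changes of 0.89 ± 0.53 for CTCF, -0.44 ± 0.50 for YAP1 and 0.05 ± 0.28 for H3K27ac. RAD21, with 18 and 7 counts in vehicle cells and 7 and 0 after sorbitol, was not tested at the DUSP4 start. An intron interval 404 bp from another DUSP4 start (chr8:29349209-29349620) fell in H3K27ac from 8.36 ± 0.887 to 3.89 ± 0.758 CPM (-1.09 ± 0.30, adjusted p = 0.0063), with an adjusted p of 0.067 without the second sorbitol library.

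DUSP5, the nuclear phosphatase specific for ERK, gained CTCF in 3 adjoining intervals at its start. The start-site interval (chr10:110497390-110497964) had 5.59 and 5.91 CPM with vehicle and 15.5 and 13.2 CPM with sorbitol. Both sorbitol libraries were higher, and the log2 fold change was 1.32 ± 0.36 (adjusted p = 0.0062). The intervals over the coding exon behind it rose by 2.38 ± 0.64 (chr10:110498043-110498267) and 2.75 ± 0.66 (chr10:110498282-110498538), on 2 to 17 counts per library. With GC-corrected offsets none of the 3 DUSP5 gains passed (adjusted p = 0.43, 0.14 and 0.078). The first was lost without the first CTCF vehicle library (0.064), and the other two without the second CTCF vehicle library (0.12 and 0.11) or the second sorbitol library (0.13 for both).

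H3K27ac at the DUSP5 start was 14.2 and 12.8 CPM with vehicle and 11.4 and 15.4 CPM with sorbitol. The groups overlapped, and the change was -0.01 ± 0.20. It fell at the third of these intervals, from 6.82 ± 0.757 to 3.07 ± 0.223 CPM (-1.15 ± 0.33, adjusted p = 0.0098), and that call was lost without the second vehicle library (adjusted p = 0.067) or the first sorbitol library (0.069). DUSP5 and DUSP8 have pseudogene copies elsewhere in the genome, and how reads with several matches were treated is not given in the sources used here.

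DUSP6, the cytoplasmic phosphatase induced by ERK that in turn inactivates it, had one of the lowest vehicle levels of H3K27ac per kb at these start sites. An H3K27ac rise was called there, and at the DUSP14 and DUSP16 starts only in 5 of 14 alternatives each. The interval (chr12:89352308-89352836), which another annotated gene also overlaps, had 5.48 and 5.23 CPM with vehicle and 10.4 and 9.94 CPM with sorbitol. Both sorbitol libraries were above both vehicle libraries, and the log2 fold change was 0.92 ± 0.26 (adjusted p = 0.0082). Without the first sorbitol library the adjusted p was 0.052, and scaled to the weakest 25% of intervals 0.056. RAD21 (0.67 ± 0.57) and YAP1 (0.18 ± 0.50) did not pass there, and CTCF counts, 9 to 23 per library, were too few to be tested.

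DUSP7, the other ERK phosphatase of the cytoplasm here, gained CTCF and lost H3K27ac on both sides of its start on TMM scaling. At the start-site interval (chr3:52056562-52057544) CTCF was 12.9 and 13.96 CPM in the vehicle libraries and 22.2 and 26.99 CPM in those with sorbitol. The libraries did not overlap, and the change was 0.88 ± 0.26 (adjusted p = 0.010), but -0.10 under total count scaling and 0.24 with GC-corrected offsets (adjusted p = 0.50). H3K27ac there was 37.7 and 32.0 CPM with vehicle and 24.5 and 28.1 CPM with sorbitol, a fall of -0.41 ± 0.13 (adjusted p = 0.023). Over 14 alternatives this fall ran from -0.68 to -0.21, and it missed the threshold in 8 of them. The CTCF call was lost without the first vehicle library (adjusted p = 0.099) or the second sorbitol library (0.067), and the H3K27ac call without the first vehicle (0.23) or first sorbitol library (0.21).

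H3K27ac also fell over the first DUSP7 coding exon (chr3:52054948-52056370), 201 bp into the gene. H3K27ac was 66.1 and 67.4 CPM with vehicle and 40.3 and 44.5 CPM with sorbitol. The groups were well apart, and the log2 fold change of -0.66 ± 0.10 (adjusted p = 2.3e-06) passed in all 14 alternatives, between -0.92 and -0.40. CTCF rose there by 1.16 ± 0.37 (adjusted p = 0.016), and by 0.18 to 1.41 over 13 alternatives. That CTCF call was lost in 8 of them. These include GC-corrected offsets (adjusted p = 0.46) and the fits without either vehicle library or without the first sorbitol library.

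DUSP8, a phosphatase of JNK and p38, gained CTCF at its start. The interval (chr11:1572127-1572813), which KRTAP5-AS1 also overlaps, had 5.74 and 4.97 CPM with vehicle and 11.4 and 17.7 CPM with sorbitol. Both sorbitol libraries were higher, and the log2 fold change was 1.43 ± 0.38 (adjusted p = 0.0047). It was 0.03 with GC-corrected offsets (adjusted p = 0.96) and 1.08 without the second sorbitol library (0.070). RAD21 there was 6.57 and 1.77 CPM with vehicle and 13.8 and 18.2 CPM with sorbitol; the groups did not overlap, and the change of 1.72 ± 0.62 did not pass (adjusted p = 0.12).

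H3K27ac at the DUSP8 start was 24.2 and 27.1 CPM with vehicle and 20.4 and 20.1 CPM with sorbitol, which did not pass (-0.34 ± 0.15, adjusted p = 0.10). An intron interval (chr11:1564424-1564871) gained CTCF from 2.54 ± 0.0840 to 9.82 ± 0.0119 CPM (1.94 ± 0.49, adjusted p = 0.0034), or 0.96 under total count scaling (adjusted p = 0.11). H3K27ac rose in the exon of the far gene end (chr11:1554282-1554481) from 2 and 3 counts to 14 and 18 (2.15 ± 0.71, adjusted p = 0.024). That last call was lost with any one H3K27ac library left out, with adjusted p from 0.070 to 0.41. The promoters of DUSP1 and DUSP8 both hold TGACGTCA, but only the DUSP1 start passed for RAD21, YAP1 and H3K27ac; whether the 2 genes differ in these responses was not tested.

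DUSP10, a phosphatase that prefers p38 and JNK over ERK, had a lower H3K27ac signal at its start with sorbitol. The interval (chr1:221741214-221743491) had 84.6 and 77.0 CPM with vehicle and 63.1 and 65.2 CPM with sorbitol. The libraries did not overlap, and the fall was -0.33 ± 0.09 (adjusted p = 0.0040). Scaled to the total count it was -0.19 (adjusted p = 0.10), and without the first vehicle library -0.27 (adjusted p = 0.066). CTCF (0.27 ± 0.23), RAD21 (-0.21 ± 0.32) and YAP1 (0.28 ± 0.23) did not pass at the DUSP10 start.

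The one YAP1 loss lay in an intron of DUSP10 (chr1:221718055-221718582). It had 37 and 20 counts in vehicle cells and 0 and 1 after sorbitol. The fitted log2 fold change was -3.70 ± 1.08 (adjusted p = 0.045), a value that depends on the small count added by the fit because the sorbitol libraries were nearly empty. The call was lost in 7 of 13 alternatives, with an adjusted p of 0.79 and 0.29 without the first or second YAP1 vehicle library and 0.16 without the first sorbitol library. H3K27ac at this DUSP10 interval was 7.58 and 6.05 CPM with vehicle and 7.99 and 8.08 CPM with sorbitol, a change of 0.24 ± 0.26 (adjusted p = 0.55).

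DUSP16, which acts mainly on JNK, had no call in any target on the settings used throughout. At its start (chr12:12561515-12563165) CTCF was 16.3 and 11.8 CPM with vehicle and 19.7 and 24.5 CPM with sorbitol. The sorbitol libraries were higher, but the change of 0.63 ± 0.27 did not pass (adjusted p = 0.069). It passed without the first sorbitol library (adjusted p = 0.037) and when scaled to the weakest 25% of intervals (0.014). H3K27ac was 70.3 and 69.3 CPM with vehicle and 74.9 and 79.2 CPM with sorbitol (0.14 ± 0.09, adjusted p = 0.24). That change passed under total count scaling (0.29, adjusted p = 0.012) and with GC-corrected offsets (0.36, adjusted p = 0.0015), and was -0.12 when scaled to the weakest 25% of intervals (adjusted p = 0.30). RAD21 (-0.12 ± 0.45) and YAP1 (0.15 ± 0.32) groups overlapped.

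DUSP14 gained CTCF at its start (chr17:37488896-37490442), an interval that another annotated gene also overlaps. The values were 12.0 and 11.1 CPM with vehicle and 20.7 and 27.5 CPM with sorbitol. Both sorbitol libraries were higher, and the log2 fold change was 1.06 ± 0.27 (adjusted p = 0.0040), which was 0.22 with GC-corrected offsets (adjusted p = 0.57) and 0.08 under total count scaling (0.84). RAD21 at the DUSP14 start had 54 and 2 counts in vehicle cells and 26 and 19 after sorbitol, so the vehicle libraries disagreed with each other. The RAD21 change was 0.94 ± 0.65 (adjusted p = 0.41), and it was 3.66 without the first vehicle library (adjusted p = 0.0057).

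YAP1 and H3K27ac values at the DUSP14 start lay on opposite sides of 0 on TMM scaling without passing on their own. YAP1 was 21.6 and 23.3 CPM with vehicle and 12.5 and 18.6 CPM with sorbitol (-0.56 ± 0.29, adjusted p = 0.30). H3K27ac was 57.7 and 57.5 CPM with vehicle and 64.1 and 70.1 CPM with sorbitol (0.22 ± 0.09, adjusted p = 0.084). The H3K27ac change passed under total count scaling (0.36, adjusted p = 0.0031) and with GC-corrected offsets (0.49, adjusted p = 9.3e-05), and was -0.048 when scaled to the weakest 25% of intervals. The YAP1 and H3K27ac responses were compared in the interaction test, which scales the 8 libraries together. Its differences over all tested intervals had a median of 0.21, so they are not those of the changes printed here. The difference of these responses, 1.14 ± 0.29, passed (adjusted p = 0.0050), though not without the first YAP1 sorbitol library (adjusted p = 0.084). An intron interval of DUSP14 (chr17:37506615-37506968) fell in H3K27ac from 15 and 16 counts to 7 and 8 (-1.52 ± 0.55, adjusted p = 0.042), a call lost with any one H3K27ac library left out (adjusted p from 0.13 to 0.26).

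**Figure D3:**
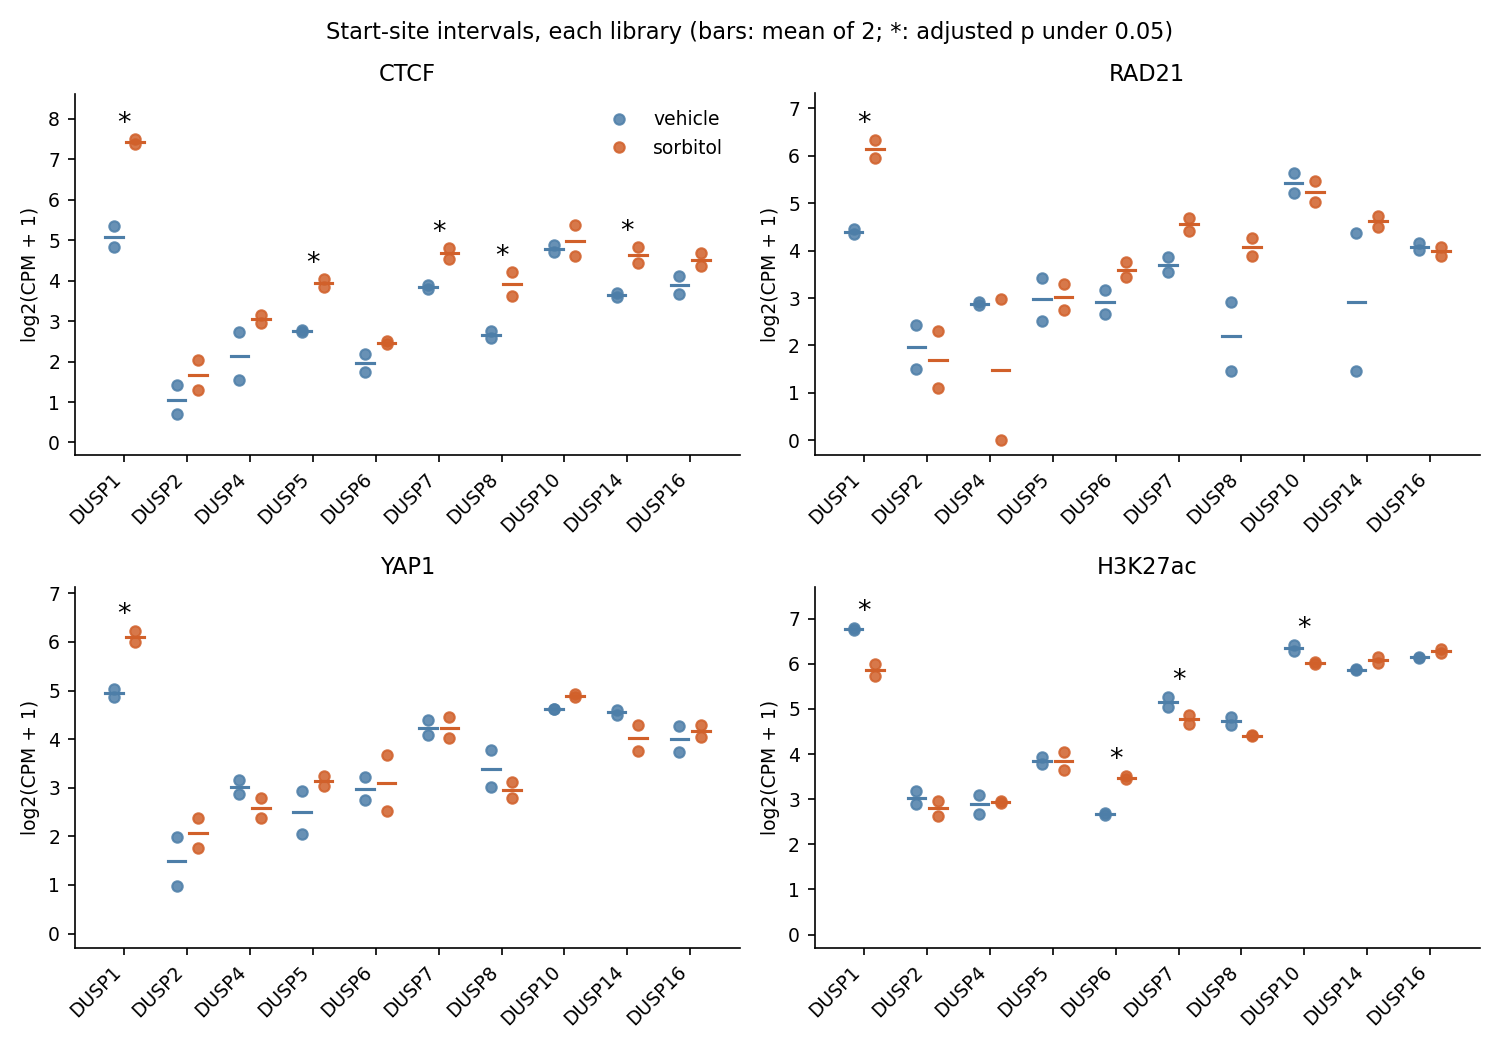
Signal at the start-site interval of each gene as log2(CPM + 1), not divided by length, one point per library with a bar at the mean of the 2, for vehicle and sorbitol in each of the 4 targets; an asterisk marks adjusted p under 0.05. Both sorbitol points of DUSP1 lie above every other point for CTCF, and both its vehicle points lie above every other point for H3K27ac.

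Levels at start sites can be ordered when divided by interval length. H3K27ac with vehicle was highest at DUSP1, 69.5 ± 1.21 CPM per kb, then DUSP16 with 42.3 ± 0.410. DUSP8, DUSP14, DUSP7 and DUSP10 followed between 37.3 and 35.5 and overlapped from each to the next. DUSP5 (23.4) and DUSP2 (22.7) overlapped, as did DUSP4 (12.1) and DUSP6 (10.1), the lowest. With sorbitol DUSP1 had 36.8 ± 4.98, below DUSP16 (46.7 ± 1.80) and DUSP14 (43.4 ± 2.71).

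CTCF with vehicle was 21.5 ± 5.56 CPM per kb at DUSP1 and 13.7 ± 0.773 at DUSP7, which did not overlap. With sorbitol DUSP1 had 110 ± 7.33 and DUSP7, the next, 25.04 ± 3.41. RAD21 with vehicle was highest at DUSP10 (18.6 ± 3.80), while DUSP1 had 12.9 ± 0.602. With sorbitol the highest RAD21 level was at DUSP1 (44.98 ± 8.32), ahead of DUSP8 (23.3 ± 4.50). YAP1 with vehicle did not separate DUSP1 (19.1 ± 1.69) from DUSP7 (18.2 ± 2.91), and with sorbitol the levels were 43.8 ± 4.74 and 18.4 ± 4.04 CPM per kb.

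By position, 22 of the 40 intervals lay within 1 kb of a transcript start of these genes, 12 farther inside a gene and 6 outside. H3K27ac was called at 9 of the 22 near starts (8 of them lower), at 2 of the 12 inside genes and at none of the 5 tested outside. Over all tested intervals within 1 kb of any transcript start, 36.8% were called for H3K27ac (26.9% lower), against 40.9% of the 22, and 13.5% of those farther away. CTCF was called at 8 of 15 tested near starts, all higher, at 2 of 4 inside genes, both higher, and at 1 of 4 outside, lower. Over all tested intervals near a transcript start 39.5% were called for CTCF (29.1% higher, 10.3% lower), against 53.3% of the 15. Farther away 40.7% were called (11.7% higher, 29.0% lower). The single RAD21 call lay near a start, as did all 10 intervals tested for RAD21. The rise in YAP1 was among 15 tested near starts, and the YAP1 loss among 3 tested inside genes. Over all tested intervals near a transcript start and farther away, RAD21 was called at 3.25 and 7.63% and YAP1 at 4.3 and 12.3%. Whether these shares differ by position was not tested.

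**Figure D4:**
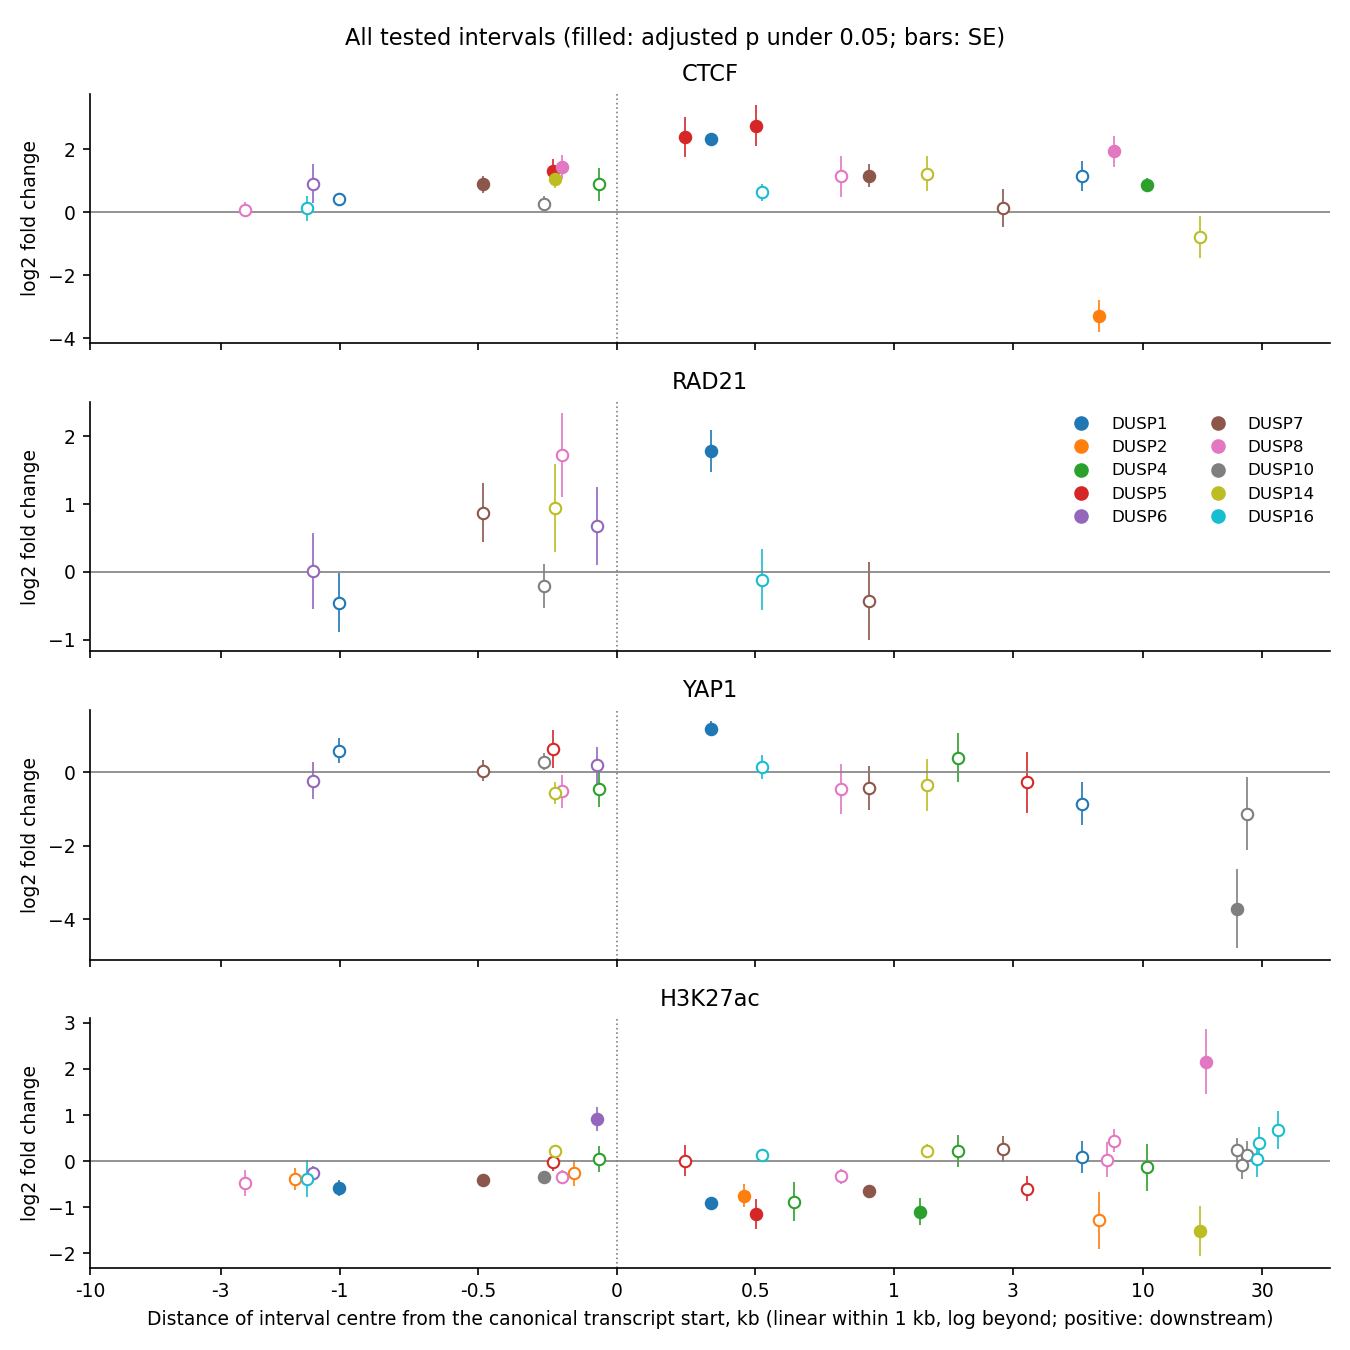
Log2 fold change of every tested interval of the 10 genes against its distance from the canonical start (kb), one panel per target, with filled points at adjusted p under 0.05. H3K27ac calls near starts lie mostly below 0 and CTCF calls there above 0 on TMM scaling; under total count scaling, CTCF at 4 of the 8 tested start sites lies below 0.

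Differences between targets were called at few other intervals. The H3K27ac response was below the CTCF response at 6 of 39 tested intervals and above it at 1, in all 17.9% against 21.6% of all tested intervals (9.3% below, 12.3% above). Besides DUSP1 the 6 lay at DUSP5 (2), DUSP7 (2) and DUSP8, and the 1 above was the interval downstream of DUSP2 that lost CTCF. Without the second CTCF sorbitol library 3 passed. The H3K27ac response was above the YAP1 response at 2 and below it at 1 of 38 intervals, 7.89% against 6.27% of all (3.72% above, 2.55% below). Without the first YAP1 sorbitol library 1 passed, and scaled to the total count 17 did, all above. RAD21 and CTCF responses differed at 0 of 25 intervals in edgeR, against 0.83% of all (0.127% above, 0.704% below), with 4 at an unadjusted p under 0.05.

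MAP kinases, on which these phosphatases act, and the kinases above them were counted in the same way, as one list. The 26 MAP kinases and kinases above them had 126 intervals. CTCF was called at 31 of 59 tested (19 higher, 12 lower), RAD21 at 5 of 38 (4 higher), YAP1 at 2 of 48 and H3K27ac at 28 of 105 (11 higher, 17 lower). These are 52.5, 13.2, 4.17 and 26.7%, against 40.2, 4.79, 6.83 and 23.1% of all tested intervals. At the start of MAPK3, which encodes ERK1, a main substrate of DUSP6, RAD21 rose by 1.39 ± 0.30 (adjusted p = 0.022) and H3K27ac fell (-0.97 ± 0.09, adjusted p = 4.4e-11). H3K27ac fell at MAPK9, a JNK gene (-0.75 ± 0.08), and at MAPK12, a p38 gene (-0.81 ± 0.08). The median log2 fold change of these kinase intervals was 0.22 for CTCF and 0.02 for H3K27ac. At start sites alone the CTCF median was 0.90 for the kinases and 0.97 for the phosphatase genes. CTCF was called there at 12 of 21 (10 higher, 2 lower) and at 5 of 8, all higher (57.1 and 62.5%). H3K27ac was called at 14 of 24 and at 4 of 10 (58.3 and 40.0%). Near any transcript start 39.5% were called for CTCF and 36.8% for H3K27ac. The 2 lists are set side by side without a test between them.

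The 10 feedback inhibitors that are not phosphatases, such as the Sprouty and SPRED proteins, had 35 intervals. H3K27ac was called at 10 of 32 tested (7 higher, 3 lower), CTCF at 8 of 20 (6 higher), RAD21 at 2 of 14 and YAP1 at 2 of 17, these last 4 higher, which is 31.2, 40.0, 14.3 and 11.8% against 23.1, 40.2, 4.79 and 6.83% of all; the medians were 0.20 for H3K27ac and 0.57 for CTCF. ERRFI1, an inhibitor of the EGF receptor, was called in all 4 targets like DUSP1, at 1.80 ± 0.20 in CTCF, 1.27 ± 0.32 in RAD21, 1.52 ± 0.27 in YAP1 and -1.09 ± 0.12 in H3K27ac. H3K27ac rose at the start of SPRY4 (1.21 ± 0.29, adjusted p = 0.0020), as it did at DUSP6.

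Atypical dual specificity phosphatases, small enzymes most of which do not act mainly on MAP kinases, had 31 intervals at 12 of 14 genes. H3K27ac was called at 9 of 23 tested, 8 of them lower, and CTCF at 6 of 22, 5 of them higher. RAD21 was called at 0 of 9, against 4.79% of all tested intervals, and YAP1 at 1 of 13. The shares were 39.1% for H3K27ac (23.1% of all), 27.3% for CTCF (40.2%) and 7.69% for YAP1 (6.83%); the medians were -0.12 for H3K27ac and 0.16 for CTCF. At start sites alone the CTCF median was -0.02 here and 0.35 for the feedback inhibitors. The largest start-site fall in H3K27ac among the atypical phosphatases was at DUSP28, -1.46 ± 0.12 (adjusted p = 1.5e-12), and DUSP18 rose in CTCF (1.63 ± 0.29, adjusted p = 1.5e-04).

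The intervals most like the DUSP1 start were ranked by the Euclidean distance between their 4 log2 fold changes, among 13843 intervals tested in all 4 targets. The nearest was at the start of SLC16A10, an aromatic amino acid transporter gene, at 2.42 in CTCF, 1.73 in RAD21, 1.19 in YAP1 and -0.89 in H3K27ac (distance 0.103). Next came ATF3, a stress-induced transcription factor gene, with 2.40, 1.82, 1.04 and -0.99 in the same order (distance 0.179). HERPUD1, a gene of the endoplasmic reticulum stress response, was at 0.310, RAB40B at 0.368 and an interval 1430 bp from a start of IER5L-AS1 at 0.376. The likeness is a description over these 16 libraries and carries no test.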

How the data were processed

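CUT&Tag reads were aligned and counted by the submitters. The deposited table holds raw counts of reads per interval, 74404 intervals by 16 libraries, which the authors did not scale, per the file headers and the whole numbers in it. The submitters' processing notes name Trim Galore, FastQC, BWA 0.7.17, SAMtools, Picard, MACS2 2.2.6 and bedtools 2.31.1 with hg38, without roles; whether peaks were called on single or on pooled libraries is not given in the sources used here. All intervals lay on hg38 names and within their lengths. Starts count from 0 in the table and from 1 in the text.

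Each target was fitted on its own 4 libraries with edgeR 4.0.16 (R 4.3.3, quasi-likelihood F test, robust, two-sided, TMM scaling, filterByExpr minimum of 10 counts, Benjamini-Hochberg over all tested intervals, threshold 0.05); differences between targets used an interaction term over 8 libraries. In the interaction fit the 8 libraries were scaled together. SEs come from the F statistic. CPM is per 1000000 on TMM-scaled sizes. Annotation was GENCODE release 44; promoters came from RefSeq (hg38). The step was tested on simulated data, where it missed most of the 2-fold changes in each target. Alternatives were DESeq2 1.42.0, its size factors in edgeR, scaling to the total count or to the weakest 25% of intervals, no filter, a mean of at least 50 counts, GC-corrected offsets (lowess span 0.3), the replicate number as a block, these last in one fit, and each library left out in turn. For differences between targets, DESeq2 itself, scaling to the weakest 25% and the mean of at least 50 counts were not run. A total without mitochondrial and YAP1 gene intervals, the share within start sites and the 9 motifs were added after the data were seen. Named are each gene's start-site interval, the 3 largest rises and falls per target among calls, the 5 intervals most like DUSP1 and up to 3 genes per comparison list; the other called intervals and the second interval with a CTCF consensus were named after their values were seen. The members and lists were chosen with earlier results of these data known. PCR copies are not independent molecules, so counting precision is overstated.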

Additional observations from a re-analysis of the deposited data

Results flagged for a closer look

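The responses of 2 targets to sorbitol differed by the interaction test of edgeR in 10 comparisons, each with its 8 libraries scaled together. At the DUSP1 start the H3K27ac response was below that of CTCF (-2.88 ± 0.18, adjusted p = 1.3e-22) and below that of YAP1 (-1.75 ± 0.20, adjusted p = 5.1e-12). The first kept its direction and its call in 15 of 15 alternatives, between -3.38 and -1.95.

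H3K27ac was also below CTCF at the DUSP5 intervals over the coding exon (-2.01 ± 0.74, adjusted p = 0.040, and -3.55 ± 0.78, adjusted p = 2.9e-04). The same held over the first DUSP7 exon (-1.46 ± 0.34, adjusted p = 6.4e-04), at the DUSP7 start (-0.93 ± 0.29, adjusted p = 0.013) and at the DUSP8 start (-1.40 ± 0.38, adjusted p = 0.0044). None of these 5 passed with GC-corrected offsets. Downstream of DUSP2 the H3K27ac response was above that of CTCF (2.38 ± 0.91, adjusted p = 0.048), a call lost without any one of the 8 libraries.

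H3K27ac was above YAP1 in the DUSP10 intron (4.39 ± 1.099, adjusted p = 0.0042), where the YAP1 sorbitol libraries had 0 and 1 counts, and at the DUSP14 start (1.14 ± 0.29, adjusted p = 0.0050). Both calls were lost without the first YAP1 sorbitol library (adjusted p = 0.085 and 0.084).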

How the results depend on the processing

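The counts of called intervals moved as follows. CTCF (11 in the main analysis) gave 7 under total count scaling, 6 when mitochondrial and YAP1 gene intervals were left out of the total, 4 at a mean of 50 counts, 5 with GC-corrected offsets, 3 with replicate block and GC together, and 6 to 12 with a library left out. RAD21 (1) gave 0 under total count scaling, 2 without the filter and 1 to 2 with a library left out. YAP1 (2) gave 14 under total count scaling, 1 in DESeq2, at a mean of 50 counts, with GC-corrected offsets, with the replicate block and with both, and 0 to 2 with a library left out. H3K27ac (11) gave 6 in DESeq2, 17 scaled to the weakest 25%, 7 at a mean of 50 counts and 4 to 8 with a library left out. H3K27ac minus CTCF (7) gave 4 with GC-corrected offsets, 3 with the block and GC, and 3 to 7 with a library left out; H3K27ac minus YAP1 (3) gave 17 under total count scaling, 6 with the reduced total and 1 to 4 with a library left out.

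Signs changed in 56 of 813 alternative values of 59 single results. Under total count scaling CTCF was -0.12 at the DUSP4 exon, -0.11 at the DUSP4 start, -0.10 at DUSP7, -0.70 at DUSP10 and -0.35 at DUSP16; YAP1 was -0.25 at DUSP1, -0.80 at DUSP5, -1.26 at DUSP6, -1.37 at DUSP7, -1.15 at DUSP10 and -1.28 at DUSP16; H3K27ac was 0.13 at DUSP5. With the reduced total CTCF was -0.21 at DUSP10, YAP1 -0.065 at DUSP5, -0.52 at DUSP6, -0.65 at DUSP7, -0.41 at DUSP10 and -0.55 at DUSP16, and H3K27ac 0.13 at DUSP5. GC-corrected offsets gave CTCF -0.037 at DUSP4, -0.049 at DUSP10 and -0.066 at DUSP16, H3K27ac 0.040 at DUSP2, 0.28 at DUSP5 and 0.031 at DUSP8, and H3K27ac minus CTCF 0.39 at DUSP8. The replicate block with GC gave CTCF -0.095 at DUSP10 and -0.052 at DUSP16, H3K27ac 0.035 at DUSP2, 0.28 at DUSP5 and 0.032 at DUSP8, and the DUSP8 difference 0.42. Scaling to the weakest 25% gave RAD21 0.16 at DUSP10 and 0.26 at DUSP16, YAP1 -0.047 at DUSP7, and H3K27ac -0.22 at DUSP4, -0.048 at DUSP14 and -0.12 at DUSP16. Without the filter YAP1 was -0.22 at DUSP6, -0.36 at DUSP7, -0.12 at DUSP10 and -0.26 at DUSP16. At a mean of 50 counts H3K27ac was 0.12 at DUSP5. With 1 library left out, CTCF at DUSP10 ran from -0.18 to 0.62, RAD21 from -0.33 to 0.11 at DUSP10 and from -0.10 to 0.088 at DUSP16, YAP1 from -0.60 to 0.68 at DUSP6, from -0.32 to 0.21 at DUSP7 and from -0.11 to 0.47 at DUSP16, and H3K27ac from -0.19 to 0.30 at DUSP4 and from -0.23 to 0.20 at DUSP5. The cause was not tested in any of these. Of the remaining values, 603 stayed on the same side of the threshold, 134 lost their call and 20 gained one. Differences between targets that did not pass and are not printed one by one (23 start-site values other than DUSP1) changed sign in 52 of 345 alternatives and are not in these counts; they were set apart after that number was seen.

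Same-numbered libraries did not deviate together (correlations from -0.0086 to 0.0054), so the numbers are not read as pairs; with the replicate block H3K27ac gave 10 calls, H3K27ac minus CTCF 5 and YAP1 1. Depth limits RAD21 most, with 10 of 40 intervals tested.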

Other observations

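Shares of the counts of the 10 start sites sum to a whole within each library, so a larger DUSP1 share fixes a smaller one for the other 9 together. DUSP10 held 22.8 ± 4.41% of the counts of the 10 start sites in CTCF vehicle libraries and 9.98 ± 3.41% in CTCF sorbitol libraries, and 32.9 ± 0.143% and 17.8 ± 2.85% in RAD21 libraries. In H3K27ac libraries, where the DUSP1 share was lower with sorbitol, DUSP16 went from 17.03 ± 0.160 to 22.1 ± 0.570%, DUSP14 from 14.1 ± 0.241 to 19.2 ± 0.957% and DUSP6 from 1.31 ± 0.0180 to 2.91 ± 0.124%. Not every gene followed: in RAD21 libraries DUSP8 went from 3.03 ± 2.03 to 7.61 ± 1.02%, and in H3K27ac libraries DUSP10 went from 19.7 ± 0.938 to 18.4 ± 0.204%. Of the 40 pairs of gene and target, DUSP1 included, vehicle and sorbitol libraries did not overlap in 21, with 8 higher and 13 lower with sorbitol. Without any change, 2 against 2 libraries separate in a share of 0.33 of pairs, and shares within a library depend on each other. The count was not compared with other intervals and is not read as a result about these genes. The pairs named are among these 21 and were chosen after their values were seen. The exact permutation p was 0.33 for each, the smallest possible, so none can pass.

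DUSP9, a MAP kinase phosphatase on the X chromosome that was not among the 10 genes, had 8 intervals. CTCF was called at 2 of 7 tested, 1 higher and 1 lower, and H3K27ac at 1 of 8, lower. These are 28.6 and 12.5%, against 40.2 and 23.1% of all tested intervals, on too few intervals to tell the shares apart. Its start had 38.3 ± 0.791 CPM per kb of H3K27ac with vehicle and 27.3 ± 1.84 with sorbitol (log2 fold change -0.49, adjusted p = 0.14).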
